A study of Mus musculus with 4 samples.

Results

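The 31 genes described here make, sense, move or export cholesterol: 18 encode enzymes of cholesterol synthesis, 5 encode the SREBP transcription factors or proteins that control them, 3 carry sterols inside the cell, and 5 are the liver X receptors (LXRs) and genes that they switch on. They were chosen by gene symbol for their known function, and all 31 were among the 24346 genes of the deposited tables. The RNA came from *in vitro* MDSCs, immature myeloid cells grown from BM cells of C57BL/6J mice (female, 6 to 8 weeks old). All cultures received 40 ng/ml GM-CSF for 4 days. The 2 libraries called G-CSF came from cultures that also received 5 ng/ml G-CSF, and the 2 called Control from cultures without it, so the comparison asks how adding G-CSF changes expression in these cells. Such cultures hold a mixture of myeloid cells, and no sorting step is described for these libraries. Values are FPKM, fragments per kilobase of transcript scaled to the number of mapped reads, so that levels can be compared between genes per length. From the size of single-read steps among low values, the Control libraries held about 13.4 and 14.2 M reads and the G-CSF libraries 12.4 and 15.6 M reads. The smallest estimate for any of the 31 genes was 96 reads, for *Nr1h3* in G-CSF replicate 1, and the median over the genes of their lowest library was 1222 reads.

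Cells build cholesterol from acetyl-CoA through mevalonate, farnesyl diphosphate, squalene and lanosterol. When sterols in the membrane of the endoplasmic reticulum run low, the escort protein SCAP carries SREBP precursors to the Golgi apparatus, where cleavage releases a factor that switches on genes of synthesis and uptake, while the INSIG proteins hold SCAP back when sterols are plentiful. Oxidised sterols activate the LXRs, which switch on exporters of cholesterol in macrophages and other myeloid cells.

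The labels were first set against marker genes. All 9 MDSC and myeloid markers measured here were expressed, led by *S100a8*; *Ly6g* was not analysed here. Their summed level was 70073 and 60511 FPKM in Control and 48462 and 48349 FPKM in G-CSF, and 5 of the 9 were lower in G-CSF at an adjusted p under 0.05 (limma with Benjamini-Hochberg adjustment), or 3 without G-CSF replicate 1 and 3 with no filter on low values. The labels' extraction text speaks of liver, whereas the methods of the study describe cells; the hepatocyte genes *Alb*, *Tat*, *Fgb* and *Ahsg*, picked after this was read, were listed at 0 in all 4 libraries, and *Cyp2e1* stood between 0.461 and 1.07 FPKM. Markers of several cell types moved with G-CSF. Among all genes tested, 12.6% were higher and 11.5% lower, or 5.4% and 4.6% with no filter on low values. Dendritic cell markers, led by *Cd74*, summed to 3231 and 2764 FPKM in Control and 1806 and 1451 FPKM in G-CSF, with 6 of 9 lower, or 3 with no filter. Macrophage markers, led by *Cd68*, summed to 529 and 545 FPKM in Control and 434 and 449 FPKM in G-CSF, with 6 of 8 lower, but none of the 8 passed without G-CSF replicate 1 and 3 passed without each of the other libraries, and 1 passed with no filter. In contrast, all 4 granule markers of neutrophil precursors, led by *Prtn3*, were higher, with sums of 812 and 688 FPKM in Control and 1882 and 1769.6 FPKM in G-CSF, and so were all 8 proliferation markers, led by *Pcna*, with sums of 761 and 773 FPKM against 952 and 930.5 FPKM.

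Markers of less abundant cells were also read, with the same shares of all genes tested for comparison. Mast cell and basophil markers, led by *Mcpt8*, summed to 129 and 130.5 FPKM in Control and 81.4 and 90 FPKM in G-CSF, with 4 of 6 lower. Eosinophil markers, led by *Prg2*, summed to 556 and 658 FPKM in Control and 365 and 330.1 FPKM in G-CSF, with 3 of 6 lower, or 5 without Control replicate 1 and 1 with no filter. T and B cell markers, led by *Cd79b*, summed to 8.05 and 7.22 FPKM in Control and 6.93 and 5.2 FPKM in G-CSF; 2 of 4 tested were lower, a count that was 0 without Control replicate 1, without G-CSF replicate 2 or with no filter, and 1 without Control replicate 2. Erythroid markers, led by *Hba-a1*, summed to between 0.577 and 1.66 FPKM, and none passed the filter on low values; *Hbb-bt* was not analysed here. Of 5 stromal markers, *Col3a1* was listed at 0 and 2 were tested, both named after their values were seen: *Pecam1*, the most abundant, was higher (log2 fold change 0.31) and *Col1a1* lower (-1.66). The call of *Pecam1* was lost without Control replicate 2 and without G-CSF replicate 1 (0 higher in each case). The stromal sums were 21.4 and 20.1 FPKM in Control and 25 and 24.4 FPKM in G-CSF. Most of each sum was *Pecam1*, at 20.0 and 19.1 FPKM in Control and 24.6 and 24.0 FPKM in G-CSF, so the sums say little on the other stromal markers.

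All 31 cholesterol genes passed the filter on low values. Their mean levels had a median over genes of 38.3 FPKM, against 12 FPKM for the 11947 genes tested. By mean level, *Fdps* (345 FPKM) stood far above the rest, and *Abca1* (2.32 FPKM) was the lowest. Differences between G-CSF and Control were small. With limma on log2(FPKM + 0.1), no cholesterol gene was higher in G-CSF at an adjusted p under 0.05, against 12.6% of all genes tested, and 4 of 31 were lower, *Npc1*, *Npc2*, *Nr1h2* and *Abcg1*, against 11.5%. None of the 31 combined an adjusted p under 0.05 with a fold change over 2, which 1.43% of all genes did. At an unadjusted p under 0.05, 5 were higher (20.1% of all genes), *Acat2*, *Fdps*, *Lss*, *Dhcr7* and *Stard4*, and 5 lower (18.9%), the 4 above and *Mylip*. With voom on estimated reads the count of genes higher at an adjusted p under 0.05 was also 5, the same genes (16.5% of all genes), and the count of genes lower was 4, those named above (12.6%). In 5 of 31 genes both G-CSF values lay above both Control values (33.7% of all genes), in 5 both lay below (32.6%), and in 21 the groups overlapped. The share called lower was thus near that among all genes. With the replicate number as a block, 8 cholesterol genes were higher and 5 lower, against 17.2% and 16.4% of all genes tested. The labels tie libraries of one number together by nothing but that number. The median log2 fold change of the 31 genes was 0.07, and that of all genes tested was 0.00.

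The counts depended on single libraries. Without Control replicate 1 no cholesterol gene was lower and 2 were higher, *Fdps* and *Dhcr7*; without G-CSF replicate 1 none was called in either direction. Without Control replicate 2 only *Abcg1* was lower, and without G-CSF replicate 2 *Npc1*, *Npc2* and *Nr1h2* were lower while *Acat2* and *Lss* were higher. With every gene above 0 tested, 16234 in all, only *Npc2* was lower. The smallest p that a two-sided exact permutation test can reach with 2 libraries against 2 is 0.333, so these calls rest on the spread that limma pools over genes. Calls were also fewer among all genes: with a library left out, 6.3% to 7.7% were higher and 6.0% to 8.5% lower, and with every gene above 0 tested, 5.4% and 4.6%.

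**Figure D1:**
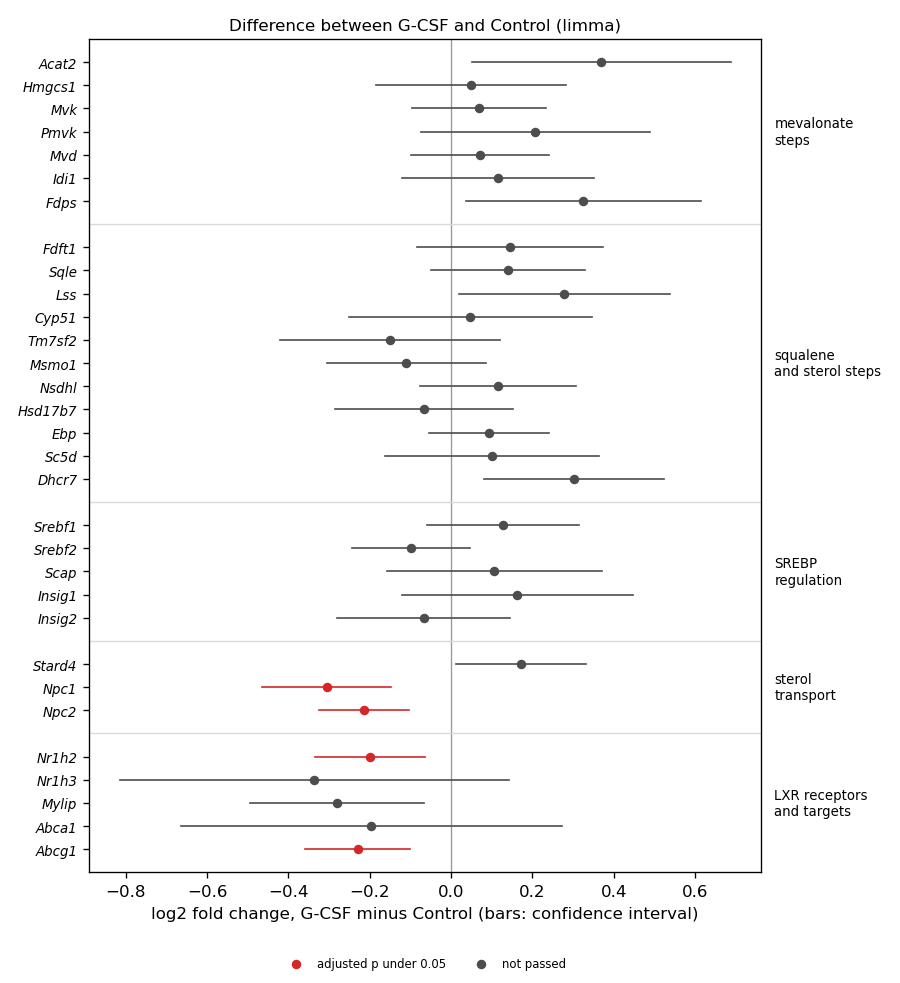
Log2 fold change of G-CSF over Control for the 31 cholesterol genes, grouped by role, on log2(FPKM + 0.1), 2 libraries a group; points are limma estimates and bars their 95% intervals. Red marks the 4 genes with an adjusted p under 0.05, all on the lower side, and the intervals of most synthesis genes span 0.

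The early enzymes of synthesis, from acetyl-CoA to farnesyl diphosphate, are encoded by 7 of the genes. All 7 had a log2 fold change above 0, between 0.05 and 0.37, and none passed at an adjusted p under 0.05 with limma without a replicate block. At an unadjusted p under 0.05, 2 were higher (20.1% of all genes tested), and 2 by voom (16.5%). With the replicate number as a block, 3 of the 7 were higher (17.2%). Without Control replicate 2 the value was below 0 in 4 of them, *Hmgcs1* (-0.079), *Mvk* (-0.006), *Mvd* (-0.007) and *Idi1* (-0.012), and without G-CSF replicate 1 in *Hmgcs1* (-0.043). *Acat2*, the cytosolic thiolase that joins acetyl-CoA units, stood at 22.2 and 18.7 FPKM in Control and 30 and 23.2 FPKM in G-CSF. The groups did not overlap, although G-CSF replicate 2 was only slightly above Control replicate 1. The log2 fold change was 0.37 (SE 0.133, 95% interval 0.05 to 0.69), with an adjusted p of 0.0881 by limma and 0.0484 by voom. Without G-CSF replicate 2 the adjusted p by limma was 0.0207 (the range over left-out libraries was 0.0207 to 0.302).

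*Fdps*, which makes farnesyl diphosphate, the branch point to sterols and protein prenylation, stood at 347 and 268 FPKM in Control and 406 and 359 FPKM in G-CSF. The Control libraries lay further apart than Control replicate 1 and G-CSF replicate 2, which were close to each other, and the groups did not overlap. Its log2 fold change was 0.32 (SE 0.12), with an adjusted p of 0.0954 by limma and 0.0333 by voom, and 0.0129 by limma without Control replicate 1, in a range of 0.0129 to 0.284 over left-out libraries. *Hmgcs1*, which makes the precursor of mevalonate, stood at 76.4 and 63.9 FPKM in Control and 77.1 and 67.8 FPKM in G-CSF. Here the groups overlapped, each with a replicate 1 above its replicate 2, and the log2 fold change was 0.05 (SE 0.0974, 95% interval -0.18 to 0.28; adjusted p = 0.74). In *Pmvk*, the second kinase of the mevalonate steps, the values were 56.3 and 45.3 FPKM in Control and 63.4 and 53.7 FPKM in G-CSF, with a log2 fold change of 0.21 (adjusted p = 0.241). *Mvk*, the first kinase, *Mvd*, the decarboxylase, and *Idi1*, which isomerises isopentenyl diphosphate, had overlapping groups and log2 fold changes of 0.07, 0.07 and 0.12 (adjusted p from 0.423 to 0.497).

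The later enzymes, from farnesyl diphosphate to cholesterol, are encoded by 11 genes. Of these, 8 had a log2 fold change above 0 and 3 below it, none passed at an adjusted p under 0.05, and 2 were higher at an unadjusted p under 0.05 and by voom, near the shares of all genes tested (20.1% and 16.5%). *Lss*, the cyclase that forms lanosterol, stood at 15.4 and 13.4 FPKM in Control and 19 and 15.9 FPKM in G-CSF. Its groups were separated by a narrow gap, between Control replicate 1 and G-CSF replicate 2. The log2 fold change was 0.28 (SE 0.108), with an adjusted p of 0.107 by limma and 0.0465 by voom, and 0.0471 by limma without G-CSF replicate 2, in a range of 0.0471 to 0.393 over left-out libraries. *Dhcr7*, the reductase that converts 7-dehydrocholesterol to cholesterol, stood at 21.9 and 18.6 FPKM in Control and 26.1 and 23.8 FPKM in G-CSF. Both G-CSF values exceeded both Control values, with a log2 fold change of 0.30 (SE 0.0923), an adjusted p of 0.0581 by limma and 0.0218 by voom, and 0.0266 by limma without Control replicate 1, in a range of 0.0266 to 0.197.

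In the other 9 genes of these steps the groups overlapped. *Fdft1*, squalene synthase, and *Sqle*, which oxidises squalene, each had a log2 fold change of 0.14 (adjusted p = 0.307 and 0.237). *Cyp51*, the lanosterol demethylase, stood at 49.6 and 39.2 FPKM in Control and 49.6 and 41.9 FPKM in G-CSF. Its replicate 1 values were nearly the same in both groups, and its log2 fold change was 0.05 (adjusted p = 0.81). Without Control replicate 2 and without G-CSF replicate 1 it was -0.123 and -0.075. *Nsdhl*, *Ebp* and *Sc5d*, which remove a carboxyl group, shift a double bond and introduce one, had log2 fold changes of 0.12, 0.09 and 0.10, and that of *Sc5d* was -0.015 and -0.036 without the same 2 libraries. The 3 below 0 were *Tm7sf2*, a sterol reductase, at -0.15, *Msmo1*, which oxidises methyl groups of the sterol ring, at -0.11, and *Hsd17b7*, a ketosteroid reductase, at -0.07, or 0.046 without Control replicate 1. None of these 6 had an adjusted p below 0.306.

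Taken by library, the 18 synthesis genes summed to 1106 and 919.7 FPKM in Control and 1199 and 1068 FPKM in G-CSF. Control replicate 2 was the lowest, G-CSF replicate 1 the highest, and Control replicate 1 lay above G-CSF replicate 2, so the groups overlapped. Within each replicate number the sum was higher in G-CSF. With the replicate number as a block, 6 of the 18 genes were higher and 0 lower, against 17.2% and 16.4% of all genes tested. The 6 were *Acat2*, *Pmvk*, *Fdps*, *Sqle*, *Lss* and *Dhcr7*. In 17 of the 18 genes, replicate 1 exceeded replicate 2 in both groups, *Ebp* being the exception. Over all 31 genes this held for 23, against 27.2% of all genes tested, and the opposite order in both groups for 4, against 28.1%. The log2 difference between replicate 1 and replicate 2 had a median over the synthesis genes of 0.23 in Control and 0.15 in G-CSF, beyond their median log2 fold change of 0.11. In 14 of the 18 genes (77.8%) the difference between the Control libraries was larger than that between the group means, which was so in 32.5% of all genes tested. Their count above 0 was 15 of 18 under upper-quartile and median-ratio scaling too, but it was 9 without Control replicate 2, with a median of 0.00, and 12 without G-CSF replicate 1, with a median of 0.04. It was 16 without Control replicate 1 (median 0.22) and 15 without G-CSF replicate 2 (median 0.20). The labels give nothing that libraries of one replicate number share. Other genes moved with this order: all 9 dendritic cell markers were higher in replicate 1 than in replicate 2 in both groups, and their part in the values of the synthesis genes was not tested.

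**Figure D2:**
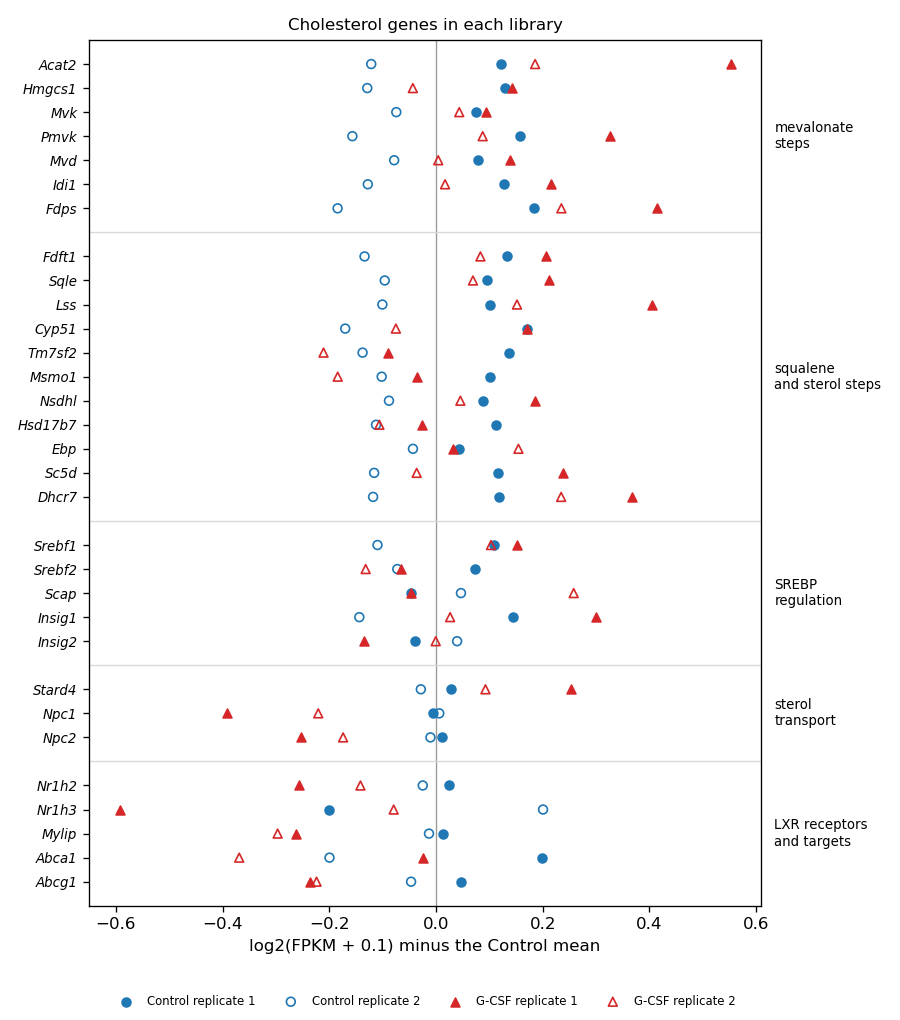
Level of each cholesterol gene in each of the 4 libraries, as log2(FPKM + 0.1) minus the mean of the 2 Control libraries, grouped by role; circles are Control and triangles G-CSF, filled for replicate 1 and open for replicate 2. In the upper 2 blocks filled symbols lie to the right of open ones within a group in 17 of 18 genes, and in *Npc1*, *Npc2*, *Nr1h2*, *Mylip* and *Abcg1* both triangles lie to the left of both circles.

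None of the 5 genes of SREBP and its control was higher or lower at an unadjusted p under 0.05, against 20.1% and 18.9% of all genes tested. None passed at an adjusted p under 0.05 with limma (12.6% and 11.5% of all genes) or with voom (16.5% and 12.6%). These counts of 0 in 5 genes were not tested against those shares. With the replicate number as a block, *Insig1* was called higher and no other gene of the 5 was called. *Srebf2*, the SREBP gene best known for driving cholesterol synthesis, stood at 95.2 and 86.1 FPKM in Control and 86.5 and 82.6 FPKM in G-CSF, and *Srebf1*, whose products also drive fatty acid synthesis, at 39.5 and 33.9 FPKM in Control and 40.7 and 39.3 FPKM in G-CSF. Both overlapped between groups, with log2 fold changes of -0.10 (95% interval -0.24 to 0.05; adjusted p = 0.274) and 0.13 (-0.06 to 0.31; adjusted p = 0.271). *Insig1*, itself a target of SREBP, stood at 51.5 and 42.2 FPKM in Control and 57.4 and 47.5 FPKM in G-CSF. Its libraries stood in the same order as the summed level of the synthesis genes, highest in G-CSF replicate 1 and lowest in Control replicate 2, with a log2 fold change of 0.16 (adjusted p = 0.35). *Insig2* and *Scap* were lower in level, between 7.80 and 14.6 FPKM, and were lower in replicate 1 than in replicate 2 in both groups. Their log2 fold changes were -0.07 and 0.11 (adjusted p = 0.612 and 0.518), and that of *Scap* was -0.047 without G-CSF replicate 2.

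*Npc2* and *Npc1*, both called lower, carry cholesterol out of lysosomes. *Npc2*, a soluble lysosomal protein that binds cholesterol and passes it on, lies on the minus strand of chr12:84754562-84773152 (GRCm38). It stood at 133 and 131 FPKM in Control and 111 and 117 FPKM in G-CSF. The Control libraries were nearly equal and both G-CSF libraries were below them. The log2 fold change was -0.21 (SE 0.0462, 95% interval -0.32 to -0.10; adjusted p = 0.0214 by limma), and the adjusted p was 0.0307 without G-CSF replicate 2 but 0.0804, 0.0567 and 0.091 without Control replicate 1, Control replicate 2 and G-CSF replicate 1.

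*Npc1*, the membrane protein that receives this cholesterol, stood at 43.5 and 43.8 FPKM in Control and 33.2 and 37.5 FPKM in G-CSF. Both G-CSF values were again below both Control values, with G-CSF replicate 1 the lowest. The log2 fold change was -0.31 (SE 0.0666, 95% interval -0.47 to -0.15; adjusted p = 0.0217 by limma), or a level 0.809 times that of Control. The adjusted p was 0.0133 without G-CSF replicate 2, and 0.0578, 0.0592 and 0.0673 without Control replicate 1, Control replicate 2 and G-CSF replicate 1. It was 0.0579 with no filter on low values. *Stard4*, which carries sterols through the cytosol and is a target of SREBP, went the other way without passing, at 35.2 and 33.8 FPKM in Control and 41.1 and 36.8 FPKM in G-CSF (log2 fold change 0.17; adjusted p = 0.106 by limma and 0.0447 by voom). Macrophage markers fell with *Npc1* and *Npc2*, from 537 ± 11.1 to 442 ± 10 FPKM in sum (SD, n = 2), as did dendritic cell markers, from 2998 ± 330.4 to 1628 ± 251 FPKM. Their part in these results was not tested, and in bulk RNA fewer cells of a type cannot be told apart from less RNA per cell.

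All 5 LXR receptors and targets had a log2 fold change below 0, between -0.34 and -0.20, and 2 were called lower, against 11.5% of all genes tested. Both calls were lost with no filter on low values (adjusted p = 0.0898 for *Nr1h2* and 0.0538 for *Abcg1*). *Nr1h2*, which encodes LXR beta, lies on the minus strand of chr7:44549616-44553951 (GRCm38) and stood at 52.4 and 50.6 FPKM in Control and 43.0 and 46.6 FPKM in G-CSF. The groups did not overlap, and G-CSF replicate 1 was the lowest library. The log2 fold change was -0.20 (SE 0.0567, 95% interval -0.34 to -0.06; adjusted p = 0.0467 by limma), and the adjusted p was 0.0406 without G-CSF replicate 2 but 0.167, 0.0862 and 0.188 without Control replicate 1, Control replicate 2 and G-CSF replicate 1. *Abcg1*, an LXR target that exports cholesterol to high-density lipoprotein, lies on the plus strand of chr17:31057675-31117988 and stood at 43.5 and 40.8 FPKM in Control and 35.8 and 36.1 FPKM in G-CSF. The G-CSF libraries were almost equal and both lay below Control. The log2 fold change was -0.23 (SE 0.0535, 95% interval -0.36 to -0.10; adjusted p = 0.0261 by limma). Without Control replicate 2 its adjusted p was 0.0376, and it was 0.124, 0.0851 and 0.0677 without Control replicate 1, G-CSF replicate 1 and G-CSF replicate 2.

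*Mylip*, an LXR target whose product marks lipoprotein receptors for degradation, stood at 6.85 and 6.73 FPKM in Control and 5.64 and 5.51 FPKM in G-CSF. Replicates of a group were close and the groups did not overlap, but the adjusted p was 0.0641 (log2 fold change -0.28, SE 0.089). *Nr1h3*, which encodes LXR alpha, stood at 6.38 and 8.45 FPKM in Control and 4.84 and 6.95 FPKM in G-CSF. Here replicate 2 was the higher library in each group, G-CSF replicate 2 lay above Control replicate 1, and the log2 fold change of -0.34 had an SE of 0.2 (adjusted p = 0.26). *Abca1*, the exporter that loads cholesterol onto apolipoproteins, stood at 2.84 and 2.13 FPKM in Control and 2.42 and 1.88 FPKM in G-CSF. Its groups overlapped as well, with a log2 fold change of -0.20 (95% interval -0.67 to 0.27; adjusted p = 0.498), or 0.003 without Control replicate 1, so that the 2 exporters had like estimates but only that of *Abcg1* passed; the difference between them was not tested.

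Further genes around the pathway were read from lists of known function. Of 9 other LXR partners and targets, 4 were lower and 0 higher with limma, against 11.5% and 12.6% of all genes tested. The median log2 fold change of the 9 was -0.34, with 6 below 0 and 3 above it, so the list did not fall as a whole. With voom 5 were lower and 0 higher (12.6% and 16.5% of all genes), at an unadjusted p under 0.05 likewise 5 and 0 (18.9% and 20.1%), and with no filter on low values 2 were lower (4.6%). As with the LXR receptors and targets above, macrophage markers (6 of 8 lower) and dendritic cell markers (6 of 9 lower) fell as well, by the sums given for *Npc1* and *Npc2*, and their part in either result was not tested. *Rxra*, the partner with which LXRs bind DNA, stood at 25.4 and 26.1 FPKM in Control and 16.7 and 18.5 FPKM in G-CSF. *Arl4c*, a small GTPase and LXR target, stood at 38.8 and 36.0 FPKM in Control and 26.2 and 26.5 FPKM in G-CSF. In both genes the groups were far apart relative to the spread of their libraries, with log2 fold changes of -0.55 (SE 0.0694; adjusted p = 0.00526 by limma) and -0.50 (SE 0.0576; adjusted p = 0.00449), and both passed whichever library was left out. *Mertk*, a receptor for dying cells that is also among the macrophage markers, had a log2 fold change of -0.52 (adjusted p = 0.0265), with 0.0968 without Control replicate 2, 0.0959 without G-CSF replicate 1 and 0.0694 with no filter. The fourth, *Smpdl3a*, named after its values were seen, had -0.34 (adjusted p = 0.0273), with 0.075 and 0.0645 without the same 2 libraries and 0.0769 with no filter. Without Control replicate 2 the list had 2 genes lower, without G-CSF replicate 1 it had 3, and without G-CSF replicate 2 it had 4 lower and 1 higher. Of 3 oxysterol enzymes tested, *Ch25h*, which makes 25-hydroxycholesterol, was lower at -0.41 (adjusted p = 0.0239) and *Hsd3b7*, a steroid dehydrogenase, at -0.26 (adjusted p = 0.0384), against 11.5% lower among all genes tested. *Ch25h* passed only without G-CSF replicate 1 among the left-out libraries (0.035, the others between 0.0637 and 0.0871), and *Hsd3b7* only without G-CSF replicate 2 (0.0497, the others between 0.0972 and 0.155). Both calls were lost with voom (adjusted p = 0.0534 for *Ch25h* and 0.0667 for *Hsd3b7*) and with no filter (0.0561 and 0.0694). *Cyp27a1*, which makes 27-hydroxycholesterol, had -0.51 (adjusted p = 0.142, or 0.0369 without Control replicate 2), and *Cyp7b1* was listed at 0 in all 4 libraries.

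Fatty acid synthesis shares acetyl-CoA and SREBP with sterol synthesis. Of its 14 genes, 4 were higher and 0 lower with limma, against 12.6% higher among all genes tested; their log2 fold changes had a median of 0.36. With voom 7 were higher and 0 lower (16.5% and 12.6% of all genes), at an unadjusted p under 0.05 the counts were 8 and 0 (20.1% and 18.9%), and with no filter on low values 2 were higher (5.4%). *Elovl6*, an elongase, stood at 12.1 and 11.6 FPKM in Control and 17.0 and 16.2 FPKM in G-CSF, and *Fasn*, fatty acid synthase, at 53.2 and 47.4 FPKM in Control and 68.9 and 63.3 FPKM in G-CSF. Both G-CSF libraries were above both Control libraries in each gene, by more than the libraries of a group differed. The log2 fold changes were 0.48 (SE 0.0691; adjusted p = 0.00707 by limma) and 0.39 (SE 0.0714; adjusted p = 0.013), and both passed whichever library was left out. *Acaca*, acetyl-CoA carboxylase, had 0.45 (adjusted p = 0.0261), with 0.0717 without Control replicate 2, 0.0925 without G-CSF replicate 1 and 0.0719 with no filter. *Fads2*, a desaturase named after its values were seen, had 0.66 (adjusted p = 0.0479), with 0.0644 and 0.142 without the same 2 libraries and 0.131 with no filter. It also missed the threshold with upper-quartile and median-ratio scaling (0.0555 and 0.0507), with a pseudocount of 1 FPKM (0.0511) and with at least 1 FPKM required in every library (0.0509). The count was 6 without Control replicate 1 or without G-CSF replicate 2, and 2 without each of the other libraries. In 11 of the 14 genes, replicate 1 exceeded replicate 2 in both groups. The summed level was 699.9 and 570.0 FPKM in Control and 885 and 743 FPKM in G-CSF, led by *Scd2*. Proliferation markers also rose, from 767 ± 8.38 to 941 ± 15 FPKM in sum (SD, n = 2), and granule markers of neutrophil precursors from 750.0 ± 87.2 to 1826 ± 79.2 FPKM; their part in these results was not tested.

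Of 10 other isoprenoid and sterol synthesis genes tested, only *Lbr*, a nuclear envelope protein with sterol reductase activity, was called with limma, against 12.6% higher among all genes tested; with voom 2 genes were higher, against 16.5%. *Lbr* stood at 50.4 and 45.0 FPKM in Control and 68.5 and 63.0 FPKM in G-CSF. The groups were well separated, with a log2 fold change of 0.46 (SE 0.0713; adjusted p = 0.00836 by limma), and it passed whichever library was left out. Its reaction is also that of *Tm7sf2*, which stood at 10.2 and 8.37 FPKM in Control and 8.66 and 7.95 FPKM in G-CSF (adjusted p = 0.366). *Acat1*, the mitochondrial thiolase, and *Coq2*, an enzyme of ubiquinone synthesis, had log2 fold changes of -0.17 and 0.29 (adjusted p = 0.0976 and 0.111). *Coq2* passed without G-CSF replicate 2 (0.0298), and the list had 2 genes higher without this library and without Control replicate 2. *Faxdc2* and *Erg28* were not analysed here. *Mbtps1*, the first protease that cleaves SREBP, had a log2 fold change of 0.12 (adjusted p = 0.211).

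Of 15 genes of sterol transfer and cholesteryl esters, 2 were higher and 2 lower, near the shares of all genes tested (12.6% and 11.5%). *Tmem97*, a sterol-responsive protein of the endoplasmic reticulum that binds NPC1, stood at 50.9 and 50.9 FPKM in Control and 73.4 and 73.4 FPKM in G-CSF. Libraries of a group were nearly identical and the groups far apart, with a log2 fold change of 0.53 (SE 0.043; adjusted p = 0.00204 by limma). *Soat2*, which esterifies cholesterol, was higher from a low level, at 0.583 and 0.441 FPKM in Control and 1.17 and 1.43 FPKM in G-CSF, on 16, 12, 29 and 45 estimated reads. Its log2 fold change was 1.20 (SE 0.224; adjusted p = 0.0141, and 0.0587 without G-CSF replicate 2), and it was not tested where 1 FPKM was required in every library. The size of the *Soat2* value depended on the pseudocount: it was 0.61 with 1 FPKM, and 1.36 with voom. *Nceh1*, which hydrolyses cholesteryl esters, stood at 28.5 and 29.7 FPKM in Control and 19.3 and 22.8 FPKM in G-CSF. It was lower in both G-CSF libraries, with a log2 fold change of -0.47 (SE 0.0864; adjusted p = 0.0134), and *Tmem97* and *Nceh1* passed whichever library was left out. *Osbpl9*, an oxysterol-binding protein relative named after its values were seen, had -0.19 (adjusted p = 0.027), which was lost without each library in turn (adjusted p from 0.0791 to 0.113).

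Of 6 lipoprotein and scavenger receptors, 1 was higher and 1 lower, against 12.6% and 11.5% of all genes tested. *Scarb1*, a receptor for high-density lipoprotein, stood at 102 and 95 FPKM in Control and 117 and 112 FPKM in G-CSF. The groups did not overlap, and the log2 fold change was 0.22 (SE 0.0519; adjusted p = 0.0267 by limma), with 0.105 without Control replicate 2, 0.102 without G-CSF replicate 1 and 0.062 with no filter on low values. *Olr1*, a receptor for oxidised low-density lipoprotein, stood at 12.5 and 12.0 FPKM in Control and 8.27 and 7.10 FPKM in G-CSF. These values rest on 60, 61, 37 and 40 estimated reads. Its log2 fold change was -0.67 (SE 0.0959, adjusted p = 0.007 by limma and 0.046 by voom), and between -0.78 and -0.56 with each library left out. *Cd36*, a fatty acid and lipoprotein receptor, had -0.41 (adjusted p = 0.0576, 0.0314 by voom, or 0.0216 without Control replicate 1, when 3 of the 6 receptors were lower).

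Some of these values are less certain because reads could come from a second gene. Of the 75-base windows in *Acat2* transcripts, 33.9% also occur in another gene on the same strand, mainly *Acat3*, and 9.2% on the opposite strand, mainly in *Tcp1*. The share on the same strand was 23.5% for *Fdps* (mainly *Gm43738*), 16.7% for *Idi1* (*Gm13502*), 8.8% for *Tm7sf2* (*Vps51*) and 5.2% for *Fdft1* (*Gm6781*). Opposite-strand sharing was 16.6% for *Fdft1* (*Ctsb*), 9.8% for *Hmgcs1*, 8.3% for *Scap*, 6.8% for *Idi1* and 3.4% for *Npc1* (*Rmc1*). Whether strand was used in counting is not given in the sources used here. In *Abcg1* and *Nr1h2* no window was shared (0.0% on either strand), and in *Npc2* at most 0.4%.

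Genes of the synthesis steps are known targets of SREBP, and promoters were read as a description, without a test. For 25 of the 31 genes, RefSeq promoters of GRCm38.p6, 300 bases around the start of a transcript, were searched on both strands for 4 motifs. The sterol regulatory element TCACNCCAC was found in 1 of the 25 genes, *Hmgcs1*, and in 1.24% of all 32851 promoters or 1.44% of their 27025 genes. The NF-Y box CCAAT was found in 20 of the 25 genes (41.06% of all genes) and the Sp1 box GGGCGG in 22 (38.2% of all genes). The LXR element, 2 copies of AGGTCA 4 bases apart, was found in none of the 25 and in 0.02% of promoters. A match is a description of these letters, and its absence says only that they are not in this window. *Fdps*, *Fdft1*, *Sqle*, *Stard4*, *Npc1* and *Abcg1* had no entry that was used here.

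The promoters of *Hmgcs1*, *Npc2* and *Nr1h2* are shown, chosen after the matches were seen: the only one with the sterol regulatory element, and those of the 2 called genes with an entry. They are *Hmgcs1* at chr13:119690101-119690400 on the plus strand, *Npc2* at chr12:84773063-84773362 on the minus strand and *Nr1h2* at chr7:44553916-44554215 on the minus strand, each 5′ to 3′ along the gene. Capitals mark matches to the 3 motifs TCACNCCAC, CCAAT and GGGCGG on either strand. In *Hmgcs1* the sterol regulatory element TCACCCCAC lies at position -137 from the start of the transcript, with 4 NF-Y boxes and 3 Sp1 boxes around it; *Npc2* holds 2 NF-Y boxes and 3 Sp1 boxes, and *Nr1h2* none of either.
Hmgcs1: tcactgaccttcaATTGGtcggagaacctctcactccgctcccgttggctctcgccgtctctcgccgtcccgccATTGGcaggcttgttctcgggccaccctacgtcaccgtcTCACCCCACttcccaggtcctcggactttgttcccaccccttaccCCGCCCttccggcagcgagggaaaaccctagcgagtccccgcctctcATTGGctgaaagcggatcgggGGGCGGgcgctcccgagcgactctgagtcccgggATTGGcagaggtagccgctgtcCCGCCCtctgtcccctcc
Npc2: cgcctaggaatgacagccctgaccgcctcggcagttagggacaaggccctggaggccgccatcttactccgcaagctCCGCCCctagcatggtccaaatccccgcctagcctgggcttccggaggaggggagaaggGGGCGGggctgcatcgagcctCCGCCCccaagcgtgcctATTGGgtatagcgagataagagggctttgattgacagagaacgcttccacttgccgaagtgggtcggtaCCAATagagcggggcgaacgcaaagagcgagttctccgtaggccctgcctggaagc
Nr1h2: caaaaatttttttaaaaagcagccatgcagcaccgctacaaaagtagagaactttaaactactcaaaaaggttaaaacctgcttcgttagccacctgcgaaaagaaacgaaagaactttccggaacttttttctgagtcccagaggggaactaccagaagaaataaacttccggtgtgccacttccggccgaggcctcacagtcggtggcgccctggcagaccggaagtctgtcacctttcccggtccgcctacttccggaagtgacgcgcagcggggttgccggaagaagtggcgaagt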

How the data were processed

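RNA-seq of 4 libraries (TruSeq stranded mRNA, 75-base single reads) was analysed from tables of FPKM that the authors deposited, 1 per library; the unit was read from the tools named and from the values. The submitters' processing notes name TopHat2 2.0.13, Bowtie2 2.2.3, SAMtools 0.1.19, Cufflinks 2.2.1 and mm10; the annotation is not given in the sources used here. The labels' extraction text names an RNeasy kit and the methods of the study a miRNeasy kit. The replicates are called biological, with nothing more on separate mice or cultures, so p-values measure the spread between these libraries, which may be technical.

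FPKM values were used without rescaling. Reads were estimated with GENCODE M21 transcript lengths less 210 bases. Of 1971 low values, 66.5% lay within 0.05 of a whole read, against 10% by chance for values not fitted. The depths and the 210 bases were chosen to make this share largest, so it is a measure of fit and not a separate check. A gene was tested if 2 libraries each held 10 or more estimated reads and the 4 libraries together 15 or more; short (200 bases or fewer) and small RNA genes (1308) and 393 genes with no length found were left out. The test was limma (lmFit, eBayes with trend, two-sided) on log2(FPKM + 0.1), which understates the change of low genes, with Benjamini-Hochberg adjustment over 11947 genes. A gene was called higher or lower at an adjusted p under 0.05. All 31 cholesterol genes are named, and from each further list the 3 genes with the smallest p, except that some genes, and the counts of 1 list that held them, are not reported here. The genes and lists were chosen with earlier results of these data known. Alternatives were other pseudocounts, filters and scalings, voom, a replicate block and leaving out each library. The steps were tested on simulated data, with planted changes larger than those of the cholesterol genes and no shared difference between replicate numbers. That test does not show how well changes as small as these are called. Versions: R 4.3.3 with limma 3.58.1; python 3.11.15 with pandas 2.3.3, numpy 2.4.6 and matplotlib 3.10.9.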

Additional observations from a re-analysis of the deposited data

How the results depend on the processing

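Pseudocounts of 1 and 0.01 FPKM, upper-quartile and median-ratio scaling and a filter of at least 1 FPKM in every library changed the direction or the call of none of the 31 cholesterol genes. The count of these genes called higher (0) was 5 with voom on estimated reads and 0 to 2 with each library left out; the count called lower (4) was 1 without a filter on low values and 0 to 3 with each library left out. Among all genes tested, 882 were higher and 744 lower without a filter, when 16234 genes were tested, and 752 to 919 were higher and 716 to 1012 lower with each library left out. With a fold change over 2 as well, the count of 171 was 57 with a pseudocount of 1 FPKM and 80 with at least 1 FPKM in every library. Leaving out a library leaves 1 in its group, which is then assumed to vary like the others. Over these fits the log2 fold change changed sign for *Hmgcs1* (-0.079 to 0.18), *Mvk* (-0.006 to 0.14), *Mvd* (-0.007 to 0.15), *Idi1* (-0.012 to 0.24), *Cyp51* (-0.12 to 0.22), *Hsd17b7* (-0.18 to 0.046), *Sc5d* (-0.036 to 0.24), *Scap* (-0.047 to 0.26) and *Abca1* (-0.40 to 0.003), none of them called; the cause was not tested. With the replicate number as a block, 8 cholesterol genes were called higher and 5 lower, against 17.2% and 16.4% of all genes tested; libraries share only a number, deviations of same-numbered libraries had a correlation across genes of 0.264, and the numbers were separated along a component that held 22.2% of the variance.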
